A study of Mus musculus with 5 samples.

Results

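A set of 10 enzymes that turn arachidonic acid into prostaglandins, thromboxane and leukotrienes were followed in macrophages that had entered Matrigel plugs holding a mouse myeloma. They were chosen by name, and every probe set whose platform annotation symbol is one of the names was taken. The cyclooxygenase branch was to hold Ptgs1, Ptgs2, Ptges, Hpgds and Tbxas1, and the lipoxygenase branch Alox5, Alox5ap, Alox15, Lta4h and Ltc4s. Of the 10 enzymes, 9 matched, with 14 probe sets, among 17074 named genes and 41053 tested probe sets. Ptgs1, the constitutive cyclooxygenase, had no probe set under its symbol and is not analysed here, so the cyclooxygenase branch rests on 4 genes and the lipoxygenase branch on 5. No matched probe set carries a second gene symbol, and each was above the floor, a scaled signal of 4.79 to which lower values were raised, on at least 1 array.

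All mice were SCID animals of the Balb/c background, aged 7 to 12 weeks, with a transgenic T-cell receptor specific for the idiotype, a stretch of the antibody that MOPC315 myeloma cells make. SCID mice hardly make B cells and T cells with receptors of their own. Mice of the tumoricidal group (3 arrays) received MOPC315 cells in Matrigel under the skin, and mice of the control group (2 arrays, labelled non-tumoricidal) received an antigen-loss form of the same line, so that both groups share the receptor, the SCID defect, the matrix and a myeloma. CD11b+ cells were sorted from the plugs on day 8. The labels call the arrays biological replicates and do not say how many mice gave each one. A p-value here therefore sets the group difference against the spread between arrays, which may not be that between mice. CD11b is also found on neutrophils, eosinophils and natural killer cells.

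Deposited median signals ran from 15.4 to 22.6. Array pairs had an r of 0.941 to 0.965 in log2 signal over the tested probe sets, which are not independent replicates. Precision is limited by having 5 arrays. Spike-in control RNAs separate the arrays into tumoricidal replicates 1 and 2 with control replicate 1 (batch A) and tumoricidal replicate 3 with control replicate 2 (batch B): the bioC signal in batch B was 0.273 times that in batch A and the lys signal 1.92 times. The labels do not say what the batches are. Of 10 macrophage markers, all were measured on every array. Their summed scaled signal was 26478.5 to 39619 in tumoricidal and 23689 to 30896 in control samples, so the groups overlapped. Csf1r, the receptor for the macrophage growth factor, was between 5913 and 6808 in tumoricidal and at 5186 and 5290 in control samples. Csf1r, Aif1 and Fcgr1 were apart upward. The others overlapped, with log2 differences from -0.18 for Cd14 to 0.57 for Fcgr3. Over all genes 17.0% were apart upward and 6.51% downward. Markers of T and natural killer cells (6 of 8 measured) summed to 642 to 2829.7 in tumoricidal and 133 to 427 in control samples, and those of plasma cells or myeloma (8 of 8) to 3591 to 4882 and 5631 to 6287. The sums of T and natural killer cells and of plasma cells or myeloma did not overlap between groups. Most of the T and natural killer cell sum was Gzma on every array. In that list 5 markers were apart upward and Cd4 overlapped at -0.26, while Cd3e was at 196 on tumoricidal replicate 2 and at 9.58 or below on the other arrays. In the plasma cell or myeloma list Xbp1, its largest part, and Prdm1 were apart upward, 5 markers were apart downward and Sdc1 overlapped. The part of such cells in the enzyme signals was not tested.

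Phospholipases free arachidonic acid from membranes. Cyclooxygenases turn it into prostaglandin H2, from which separate synthases make prostaglandin E2, prostaglandin D2 or thromboxane A2. The 5-lipoxygenase, aided by its activating protein, makes leukotriene A4, which is either hydrolysed to leukotriene B4, an attractant of neutrophils, or joined to glutathione as leukotriene C4, the first of the cysteinyl leukotrienes. Macrophages are a classical source of most of these lipids.

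None of the 9 enzymes differed between the groups past the threshold, a limma adjusted p under 0.05 over all probe sets: 0 were called higher and 0 lower, where 0.0527% of all genes were called higher and 0.0117% lower. The lowest adjusted p among them was 0.467. At an unadjusted p under 0.05 there was 1 higher enzyme, Alox15, and 1 lower, Ltc4s, against 6.12% and 2.79% of all genes. With the batch as a term in the fit there were 2 higher, Tbxas1 (unadjusted p = 0.00741) and Alox15 (0.0120), and 2 lower, Hpgds (0.0450) and Ltc4s (0.0319), against 8.15% and 3.40% of all genes, and the lowest limma adjusted p was 0.333. Every tumoricidal array lay above both control arrays for Tbxas1 and Alox15 and below both for Ltc4s. That makes 2 of 9 higher and 1 of 9 lower, where 17.0% and 6.51% of all genes were fully apart in those directions. With 3 arrays against 2 there are 10 splits, so an exact one-sided permutation test of a single enzyme cannot give a p below 0.1. The median log2 difference over the 9 enzymes was 0.09, beside 0.13 over all genes.

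**Figure D1:**
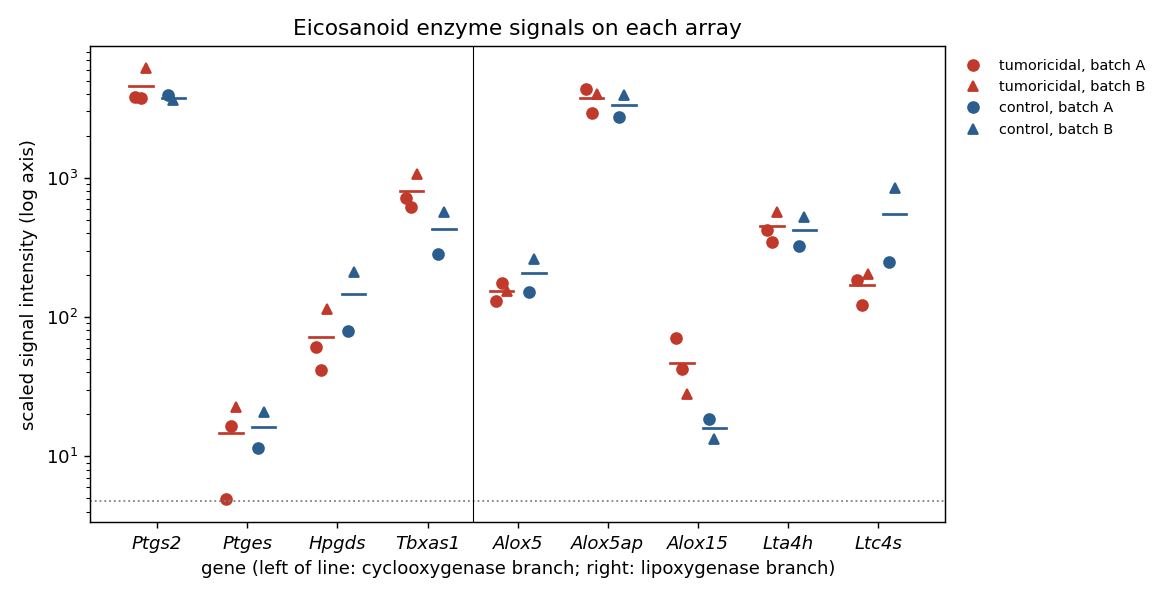
Scaled signal intensity (log axis) of the 9 matched enzymes on each array, with tumoricidal arrays in red, control arrays in blue, circles for batch A, triangles for batch B and bars for group means; the dotted line is the floor of 4.79. The groups are fully apart for Tbxas1, Alox15 and Ltc4s, and the control arrays of Ltc4s lie at 248 and 847.

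The inducible cyclooxygenase Ptgs2, which makes prostaglandin H2 during inflammation, is encoded on chromosome 1 (GRCm38.p6, 150100031 to 150108234). Tumoricidal replicates 1 to 3 had scaled signals of 3817, 3776 and 6199, and control replicates 1 and 2 had 3920 and 3598. The groups overlapped, and tumoricidal replicate 3 stood highest. Group means were 4597 ± 1388 (SD, n = 3) and 3759 ± 227 (SD, n = 2), and the log2 difference was 0.25 (SE 0.31, 95% interval -0.53 to 1.03, limma adjusted p = 0.859). A second Ptgs2 probe set gave a log2 difference of 0.38 (SE 0.62). Batch A alone gave -0.046, and batch B, with 1 array per group, gave 0.78. The interval reaches a log2 difference of 1.03 for Ptgs2, so these arrays do not show that the groups were alike.

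Ptges, the inducible microsomal synthase of prostaglandin E2, was near the floor. Its representing probe set gave 4.88, 16.4 and 22.6 in the tumoricidal arrays and 11.5 and 20.9 in the control arrays. The log2 difference was -0.35 (SE 0.71, 95% interval -2.10 to 1.40, limma adjusted p = 0.909). Its 3 probe sets disagreed: another gave 0.20 with 2 tumoricidal arrays and 1 control array at the floor, and the remaining one gave -0.91 with all 3 tumoricidal arrays at the floor and control signals of 10.4 and 7.80.

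Hpgds, the haematopoietic synthase of prostaglandin D2, known from mast cells and some macrophages, gave 60.7, 41.9 and 114 on the tumoricidal arrays, in replicate order, and 78.8 and 212 on the control arrays. Tumoricidal replicate 3 exceeded control replicate 1, so the groups overlapped, and in both groups the batch B array was the higher. The log2 difference was -0.96 (SE 0.60, 95% interval -2.44 to 0.51, limma adjusted p = 0.792), with -0.65 within batch A and -0.89 within batch B. Without control replicate 2 it was -0.25, and without control replicate 1 it was -1.68. With the deposited scaling in place of equal medians, Hpgds was also fully apart, lower in tumoricidal arrays.

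Tbxas1, the thromboxane A2 synthase of platelets and macrophages, lies on chromosome 6 (38864159 to 39084590). The tumoricidal arrays gave 719, 614 and 1062, in replicate order, and the control arrays 286 and 573. Every tumoricidal array exceeded both control arrays, with the smallest gap between 614 and 573. Group means were 798 ± 234 (SD, n = 3) and 429 ± 203 (SD, n = 2), and the log2 difference was 0.94 (SE 0.41, 95% interval -0.08 to 1.96, 1.92-fold), which did not pass (limma adjusted p = 0.680). Batch A alone gave 1.22 and batch B alone 0.89, and a fit that blocks on batch gave 1.08 (adjusted p = 0.333). Leaving out control replicate 1 gave 0.44. Of 7 platelet markers 6 were measured, and their summed signal, most of it from Pf4, was 2647 to 4340 in tumoricidal and 4252 to 6029 in control samples. They went both ways: Ppbp, a platelet chemokine, was fully apart with 263, 91.2 and 133 against 658 and 622, and the other 5 overlapped, with log2 differences of -0.50 for Pf4, -0.32 for Itga2b, -0.97 for Gp6, 0.78 for Gp9 and 1.29 for Treml1. The part of platelets in the Tbxas1 signal was not tested.

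In the other branch, Alox5, the lipoxygenase that starts leukotriene synthesis, gave 131, 176 and 154 in the tumoricidal arrays and 151 and 261 in the control arrays. The ranges overlapped, and control replicate 2 was highest. The log2 difference was -0.38 (SE 0.33, 95% interval -1.19 to 0.44, limma adjusted p = 0.835), with 0.012 within batch A and -0.76 within batch B. With the deposited scaling or quantile normalization Alox5 was fully apart, lower in tumoricidal arrays. Its partner Alox5ap, the membrane protein that presents arachidonic acid to it, had 4317, 2929 and 3975 against 2740 and 3948. The groups overlapped, and the log2 difference was 0.17 (SE 0.31, 95% interval -0.59 to 0.93, limma adjusted p = 0.902). With the deposited scaling and with quantile normalization Alox5ap was at -0.063 and -0.16, so its direction depends on the scaling.

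Alox15, the lipoxygenase that oxidises arachidonic acid at a later carbon and feeds lipoxin synthesis, had the largest positive difference of the 9. It lies on chromosome 11 (70344147 to 70390538). Tumoricidal replicates 1 to 3 gave 70.9, 42.2 and 28.2, and the controls gave 18.4 and 13.2. All tumoricidal arrays were above both control arrays, and tumoricidal replicate 1 was the highest. Group means were 47.1 ± 21.8 (SD, n = 3) and 15.8 ± 3.68 (SD, n = 2). The log2 difference was 1.49 (SE 0.44, 95% interval 0.40 to 2.59, 2.81-fold, unadjusted p = 0.0161 and adjusted p = 0.467 in limma). Batch A alone gave 1.57, batch B alone 1.09, and the fits with any single array left out gave 1.14 to 1.81. Alox15 was dim, with both control signals below that of the median probe set, 21.5. With a pseudocount of 16 and no floor the difference was 0.94 (unadjusted p = 0.0204 in limma). The deposited scaling gave 1.26 (unadjusted p = 0.0550 in limma).

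Alox15 is known from eosinophils and from macrophages of the body cavities. The summed signal of the 5 measured of 7 eosinophil markers was 61.0 to 74.6 in tumoricidal and 32.6 to 41.0 in control samples, without overlap. Most of that gap is Siglecf, with 38.5, 37.0 and 38.5 against 10.5 and 5.80, while the granule genes Epx and Prg2 stayed at 14.3 or below on every array. Epx, Prg2, Ccr3 and Il5ra overlapped between groups, with log2 differences of 0.53, 0.27, -0.63 and -0.48, and each was at the floor on some arrays. The 8 measured of 10 mast cell and basophil markers summed to 167 to 221 against 71.5 to 102, led by the basophil protease Mcpt8 with 76.1, 49.4 and 58.3 against 7.49 and the floor. Of those 8, Mcpt8, Ms4a2, Kit and Gata2 were apart upward, while Cma1, Cpa3, Tpsb2 and Fcer1a overlapped. Ms4a2 was at the floor on both control arrays. The part of such cells in the Alox15 signal was not tested. In sorted bulk samples, more cells of a type and more RNA per cell cannot be told apart. Markers of body cavity macrophages summed to 611, 413 and 2065 in the tumoricidal and 539 and 1915 in the control arrays, with both batch B arrays high through Cd5l. Of these 6 markers Icam2 was apart upward, with 77.4, 56.5 and 86.1 against 34.2 and 50.9, and the other 5 overlapped, with log2 differences from -0.55 for Cd5l to 0.69 for Garnl3. Their part in the Alox15 signal was not tested.

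Lta4h, the hydrolase that makes leukotriene B4, is on chromosome 10 (93453396 to 93484896). The representing probe set gave 425, 348 and 573 against 324 and 523, with overlapping groups. Its log2 difference was 0.09 (SE 0.35, 95% interval -0.77 to 0.96, limma adjusted p = 0.952). The other 2 Lta4h probe sets gave -0.66 and -0.24, and the value also turned negative with the deposited scaling (-0.14) and quantile normalization (-0.15).

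Ltc4s, the synthase of leukotriene C4, had the largest negative difference. It is a short gene on chromosome 11 (50236461 to 50238532). Tumoricidal replicates 1 to 3 gave 184, 121 and 204, and the controls gave 248 and 847. Every tumoricidal array was below both control arrays, but the control arrays differed from each other by more than control replicate 1 differed from the tumoricidal group. Group means were 170 ± 43.3 (SD, n = 3) and 548 ± 424 (SD, n = 2), and the log2 difference was -1.47 (SE 0.57, 95% interval -2.88 to -0.06, unadjusted p = 0.0439 and adjusted p = 0.603 in limma). Batch A alone gave -0.73 and batch B alone -2.05; the value was -0.58 without control replicate 2 and -2.35 without control replicate 1. Mast cells and basophils also make leukotriene C4. The summed signal of their markers was 167 to 221 in tumoricidal and 71.5 to 102 in control samples. Of these markers 4 of 8 were apart upward and 0 downward, against 17.0% and 6.51% of all genes. Both control arrays were at the floor for Ms4a2, and control replicate 2 was for Mcpt8. Cma1, Cpa3, Tpsb2 and Fcer1a overlapped. The part of such cells in the Ltc4s signal was not tested.

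**Figure D2:**
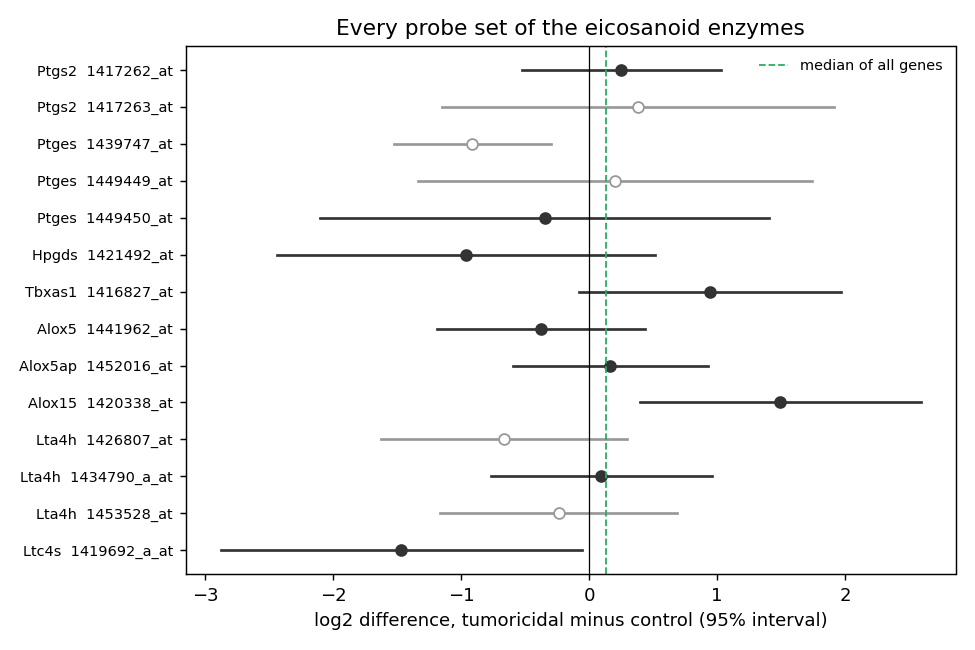
Log2 difference, tumoricidal minus control, with its 95% interval for each of the 14 probe sets; filled points represent the gene, open points are its other probe sets, and the dashed line is the median of all genes at 0.13. The intervals of Alox15, Ltc4s and 1 Ptges probe set with all tumoricidal arrays at the floor exclude 0, and none passed after adjustment.

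The branch means differed by less than the spread between arrays, whose SD within groups was 0.502 for the gap between branches. The mean log2 difference was -0.03 over the 4 cyclooxygenase branch genes and -0.02 over the 5 lipoxygenase branch genes, a gap of -0.01, with no test since the genes were chosen by name with earlier results known. Centred on each gene's mean over arrays, the cyclooxygenase branch stood at -0.46, -0.22 and 0.64 on the tumoricidal arrays, in replicate order, and at -0.38 and 0.41 on the controls. It was therefore high on both batch B arrays and low on all batch A arrays, whatever the group. The lipoxygenase branch stood at 0.15, -0.20 and 0.03 in tumoricidal and at -0.32 and 0.34 in control arrays. The difference between the branches was -0.61, -0.02 and 0.61 in the tumoricidal and -0.06 and 0.07 in the control arrays, so that the tumoricidal arrays alone spanned more than the groups differed. On tumoricidal replicate 1 the lowest gene of the cyclooxygenase branch was Ptges at -1.46, from a signal of 4.88 near the floor. The branch mean and the branch difference of that array include this value. Within each branch the genes went both ways: 2 positive and 2 negative in the first, 3 positive and 2 negative in the second.

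**Figure D3:**
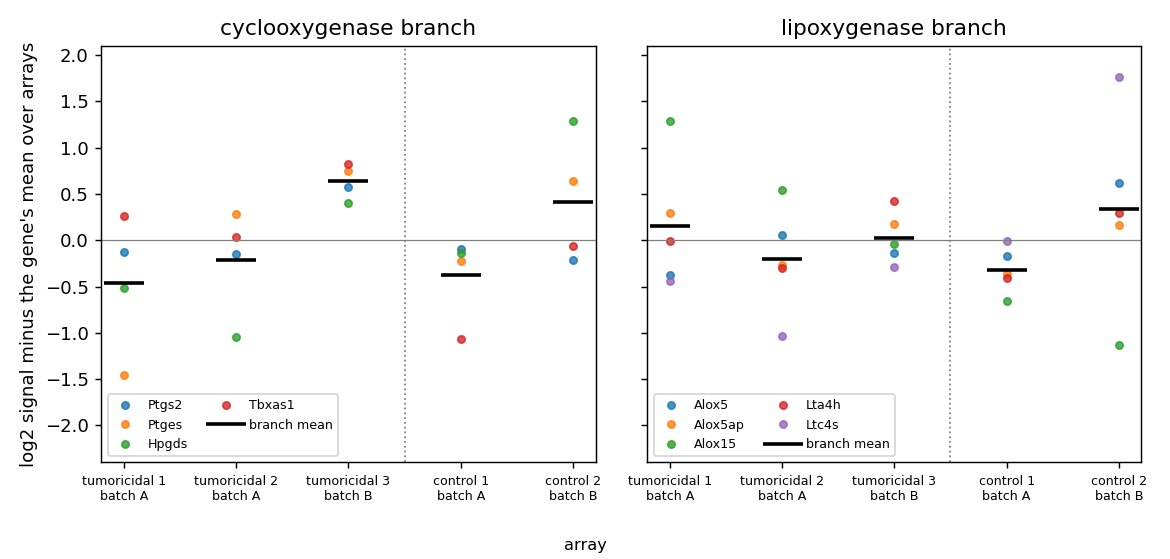
Log2 signal of each gene minus its mean over the 5 arrays, with the cyclooxygenase branch on the left, the lipoxygenase branch on the right and black bars for the branch mean on each array. The cyclooxygenase mean is 0.64 and 0.41 on the batch B arrays and between -0.46 and -0.22 on the batch A arrays.

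**Figure D4:**
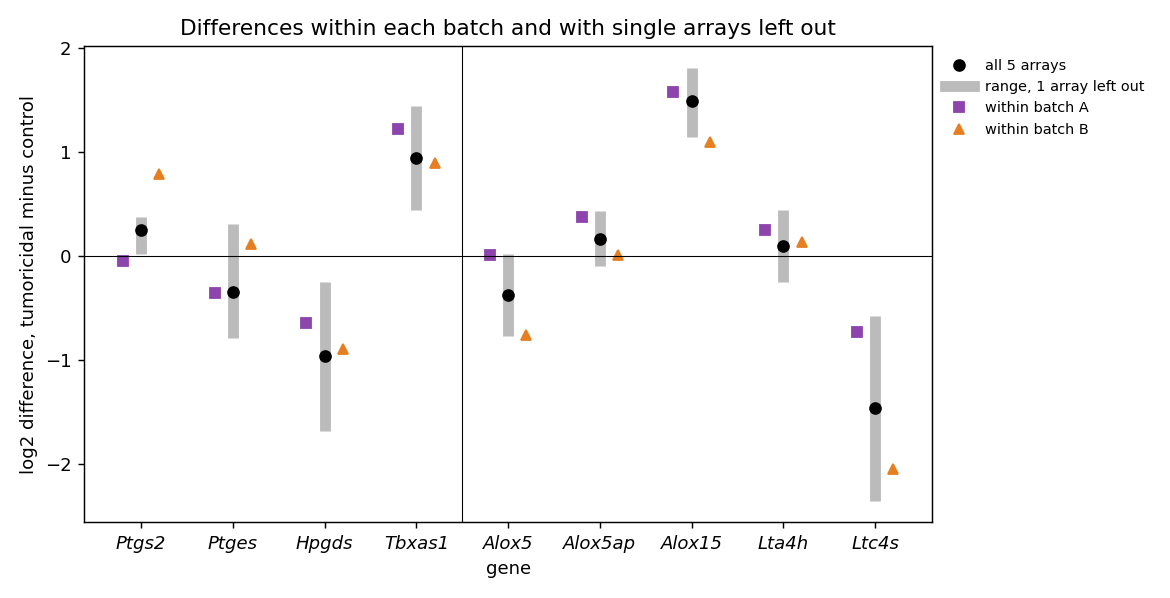
Log2 difference of each enzyme over all 5 arrays (black), within batch A (squares) and batch B (triangles), and its range when any single array is left out (grey bars). Tbxas1 and Alox15 stay positive and Hpgds and Ltc4s negative in all of these, while Ltc4s runs from -2.35 to -0.58.

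The promoter windows of Ptgs2, Tbxas1 and Ltc4s are shown because these enzymes are, in turn, the inducible cyclooxygenase, an enzyme higher on every tumoricidal array and the one lower on every tumoricidal array. RefSeq promoter sequences (GRCm38.p6) were found for 8 of the 10 enzymes, not for Alox5ap and Alox15. Each run gives the 250 bases before the annotated start, 5′ to 3′ on the gene's strand, with matches to the searched motifs in capitals.
Ptgs2, plus strand, chr1:150099781-150100030: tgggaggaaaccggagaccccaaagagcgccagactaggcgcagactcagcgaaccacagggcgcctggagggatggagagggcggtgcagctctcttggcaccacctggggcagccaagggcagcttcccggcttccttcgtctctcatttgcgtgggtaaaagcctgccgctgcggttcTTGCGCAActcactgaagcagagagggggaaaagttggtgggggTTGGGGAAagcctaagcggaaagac
Tbxas1, plus strand, chr6:38918736-38918985, inside the annotated span of the gene: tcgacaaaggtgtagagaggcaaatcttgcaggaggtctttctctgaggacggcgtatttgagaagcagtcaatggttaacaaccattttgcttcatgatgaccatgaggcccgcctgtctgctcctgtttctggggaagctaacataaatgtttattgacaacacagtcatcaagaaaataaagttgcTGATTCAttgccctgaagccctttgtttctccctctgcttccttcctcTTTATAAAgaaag
Ltc4s, minus strand, chr11:50238533-50238782: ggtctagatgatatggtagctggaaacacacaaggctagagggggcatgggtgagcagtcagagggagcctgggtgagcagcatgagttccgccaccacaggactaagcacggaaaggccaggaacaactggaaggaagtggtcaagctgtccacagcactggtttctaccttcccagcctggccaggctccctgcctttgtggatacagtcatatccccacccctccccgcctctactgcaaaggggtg

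Both strands were searched for the TATA box TATAAA, the AP-1 site TGANTCA, the C/EBP site TTNNGNAA, the interferon gamma activated site TTCNNNGAA, the interferon regulatory factor site GAAANNGAA and the NF-kB site. In the Ptgs2 window, C/EBP letters lie 69 to 62 bases before the start, where they read the same on both strands, and 25 to 18 bases before it. Such letters occur in 36.8% of the 32851 promoter windows of this length. The Tbxas1 window has AP-1 letters 61 to 55 bases before the start, as do 6.75% of windows somewhere, and TATA letters ending 6 bases before it, as do 12.4%, overlapped by the same motif on the other strand. The Ltc4s window matched none of the 6 motifs. The letters of the 2 interferon motifs, found in 7.02% and 7.13% of windows, and of the NF-kB site, found in 3.90%, were in none of these 3 windows. A match is a description of the letters and not evidence of binding.

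Other genes of the pathway were read from 7 lists with 61 names, of which 54 were tested. None was called in either direction. All tumoricidal arrays were above both control arrays for 14 of the 54 and below for 4, where 17.0% and 6.51% of all genes were apart in those directions. At an unadjusted p under 0.05, 11 of 54 were higher and 2 lower, against 6.12% and 2.79% of all genes. The median log2 difference was 0.14, beside 0.13 over all genes. With the deposited scaling 11 pathway genes were apart upward and 9 downward, against 9.91% and 15.2% of all genes. With quantile normalization 12 and 7 were, against 12.8% and 11.7%.

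Receptors for leukotrienes, lipoxins and resolvins had the highest list median, 1.04, with 0 of 6 called, 4 apart upward and 0 apart downward. Over all genes 17.0% were apart upward and 6.51% downward. Fpr2, a formyl peptide receptor that also binds lipoxin A4, gave 2857, 1949 and 2654 on the tumoricidal arrays against 630.5 and 787 on the controls. The lowest tumoricidal array exceeded the highest control array by more than the control arrays differed. Its log2 difference was 1.80 (SE 0.28, 95% interval 1.10 to 2.51, limma adjusted p = 0.172), with 1.90 within batch A and 1.75 within batch B. Of the alternatives tried, it passed only when the test was kept to probe sets above the median (adjusted p = 0.0363). Ltb4r1, the high-affinity leukotriene B4 receptor, had 1028, 885 and 813 against 469 and 286, which is 1.30 on the log2 scale (SE 0.31, adjusted p = 0.342). Gpr18, a receptor linked to resolvins, had 206, 264 and 126 against 73.8 and 65.8, a difference of 1.45 (SE 0.37, adjusted p = 0.386). Cysltr1, a receptor for the products of Ltc4s, overlapped between groups at -0.22 (SE 0.41). Fpr2 and Ltb4r1 are also abundant in neutrophils. The summed signal of 9 of 11 neutrophil markers was 9804 to 11248 in tumoricidal and 4370 to 7245 in control samples, without overlap. Most of it came from S100a8 and S100a9. These 2, Cxcr2, Lcn2 and Ngp were apart upward, while Csf3r, Camp, Mpo and Elane overlapped, with log2 differences of 0.54, 0.98, -0.29 and -0.35. The part of neutrophils in the receptor signals was not tested.

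The substrate release list holds acyltransferases and other genes beside phospholipases. Of its genes 0 of 16 were called, with a median of 0.19. Apart upward were 3 and downward 1, against 17.0% and 6.51% of all genes. Pla2g4a, the cytosolic phospholipase that frees arachidonic acid, had 1006, 916 and 1426 in the tumoricidal arrays against 426 and 494 in the control arrays. The groups did not overlap. The log2 difference was 1.26 (SE 0.29, 95% interval 0.53 to 1.98, limma adjusted p = 0.336), with 1.17 within batch A and 1.53 within batch B. Lpcat2, an acyltransferase that also makes platelet-activating factor, had 281, 191 and 407 against 60.5 and 118, a difference of 1.73 (SE 0.45, adjusted p = 0.394). Lpcat3, which returns arachidonic acid to membranes, was apart by less, at 0.42 (SE 0.27).

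Among other prostanoid synthases 0 of 5 were called, with a median of -0.06. Ptges2, another prostaglandin E2 synthase, was apart with 77.0, 53.3 and 62.1 against 26.4 and 41.3 (log2 difference 0.94, SE 0.32, limma adjusted p = 0.534). In the list of prostanoid removal and transport, 0 of 6 were called and the median was 0.04. Abcc4, a transporter that exports prostaglandins, was apart with 350, 240.0 and 300.0 against 146 and 136 (log2 difference 1.06, SE 0.27, adjusted p = 0.376). Hpgd, which inactivates prostaglandins, had -0.53 (SE 0.33), with overlapping groups.

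Prostanoid receptors went both ways, with 0 of 8 called and a median of -0.04. Apart upward were 4 and downward 1, against 17.0% and 6.51% of all genes. Ptger2, a prostaglandin E2 receptor, had 174, 211 and 188 against 95.7 and 132, which is 0.76 on the log2 scale (SE 0.26, limma adjusted p = 0.551). Ptgir, the prostacyclin receptor, differed by 0.95 (SE 0.28, adjusted p = 0.477). Tbxa2r, the thromboxane receptor and so the counterpart of Tbxas1, was lower and dim, with the floor, 15.4 and 9.12 against 27.7 and 17.6 (log2 difference -1.33, SE 0.54, adjusted p = 0.624). Of the other lipoxygenases 0 of 4 were called and none was apart, with a median of -0.14.

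In leukotriene processing and transport 0 of 9 were called, with a median of 0.22. Apart upward was 1 and downward 2, against 17.0% and 6.51% of all genes. Mgst1, a microsomal glutathione transferase of the same protein superfamily as Ltc4s and Alox5ap, had 2369, 2053 and 3543 against 824 and 1737, which is 1.11 on the log2 scale (SE 0.43, limma adjusted p = 0.600). Dpep1 and Dpep3, of a family of dipeptidases that trims cysteinyl leukotrienes, were lower at -0.77 (SE 0.42) and -1.83 (SE 0.50). For Dpep3, 2 tumoricidal arrays were at the floor, and its value depends on the treatment of low signals: with a pseudocount of 16 it was -0.94, and with the floor at the 10th percentile -2.94.

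**Figure D5:**
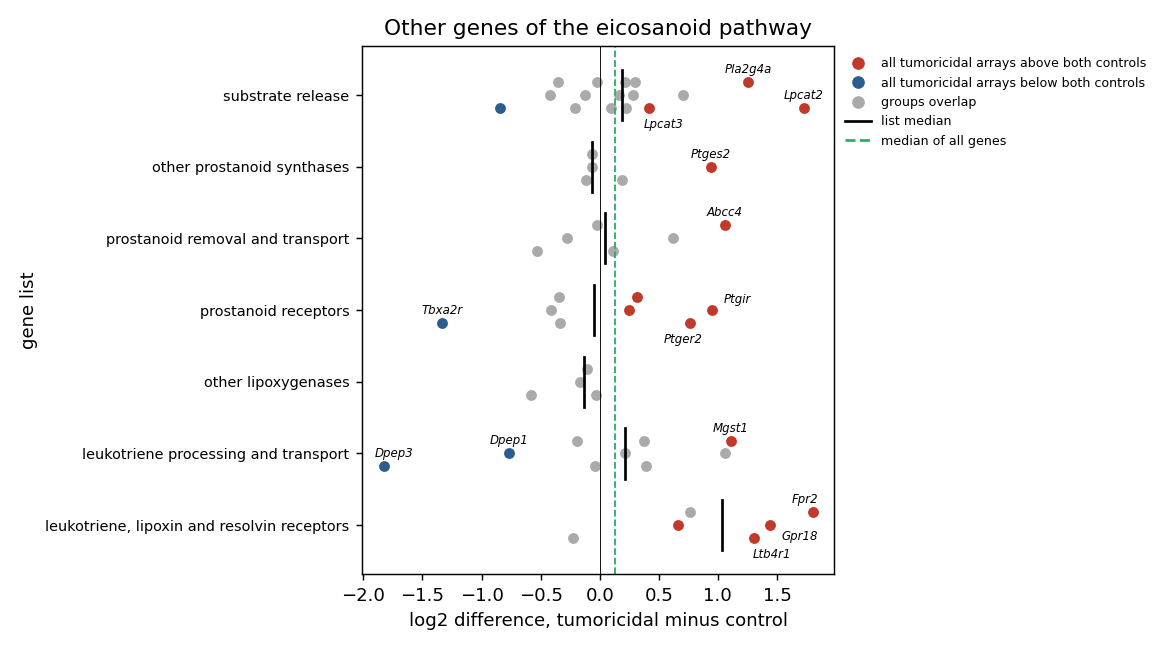
Log2 difference, tumoricidal minus control, of the 54 tested genes in 7 pathway lists, with red where all tumoricidal arrays lie above both controls, blue where all lie below, grey where they overlap, black bars for list medians and a dashed line for the median of all genes. The receptors for leukotrienes, lipoxins and resolvins have the highest median, 1.04, and Fpr2 at 1.80 is the highest gene.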

How the data were processed

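Signal was measured with Affymetrix arrays from biotin-labelled cRNA of sorted cells, per the labels' protocols. Linear intensity of 45101 probe sets on 5 arrays was deposited. How it was summarised and scaled is not given in the sources used here. Every deposited array had a mean of 100.0 after removal of the extreme 2% at both ends.

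Arrays were scaled to a common median, since deposited medians differed by up to 1.47 times. The 64 control probe sets were dropped. Signals under the pooled 25th percentile, 4.79, were set to that floor and log2 was taken. The 41053 probe sets above the floor on at least 1 array entered limma (lmFit, eBayes, two-sided, Benjamini-Hochberg over all of them, no covariate). Differences are tumoricidal minus control, 3 arrays against 2. A log2 difference that involves floored arrays depends on the floor.

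Names came from the platform annotation, where 34945 probe sets have 1 symbol, 932 several and 9160 none. A gene is represented by its probe set of highest mean log2, giving 17074 genes. All 10 enzymes, with every probe set, were to be named; from each pathway list, members past the threshold, or up to 3 of the largest differences with the groups apart and the higher mean above the median probe set. Other genes named were picked after their values were seen. The enzymes and lists were chosen with earlier results of these data known. The fit was tested on simulated data with independent noise, no batch and changes set only in probe sets above the median. That simulation does not cover the batches or the dim probe sets.

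Alternatives covered scaling, floor, pseudocount, dim probe sets, variance trend, blocks, probe set choice and single arrays left out. Promoter sequences came from RefSeq (GRCm38.p6), matching 8 of the 10 enzymes. The fits used limma 3.58.1 in R 4.3.3; promoters were searched in Python 3.11.15, and plots made with matplotlib 3.10.9.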

Additional observations from a re-analysis of the deposited data

How the results depend on the processing

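No enzyme passed under any alternative tried. Over all probe sets 21 were called, against 19 with the deposited scaling, 28 with quantile normalization, 71 with a pseudocount of 16, 193 with only probe sets above the median, 65 with a variance trend, and 0 with a floor at the 10th percentile, with either block, within batch A or with any array left out. Single arrays left out, for which a lone control array is assumed to vary like the others, moved the cyclooxygenase branch mean from -0.43 to 0.37, the lipoxygenase branch mean from -0.35 to 0.31, the enzymes with groups apart from 3 to 6, the pathway genes apart upward from 15 to 23 and downward from 6 to 14. Fewer arrays make full separation more likely. With single arrays left out, 22.6% to 41% of all genes were apart upward and 9.65% to 22.1% downward. Within batch A 7 enzymes were apart, 4 upward and 3 downward, and 24 and 11 pathway genes. There 47.5% of all genes were apart upward and 23.3% downward. Within batch A the lipoxygenase branch mean was 0.30, and within batch B the branch difference was 0.54. With the deposited scaling 5 enzymes were apart, 2 higher and 3 lower, with Hpgds and Alox5 joining lower. There 9.91% and 15.2% of all genes were apart in those directions, and 11 pathway genes were apart upward and 9 downward. With quantile normalization 2 enzymes were higher and 2 lower, against 12.8% and 11.7% of all genes. There 12 pathway genes were apart upward and 7 downward. Median differences over all genes were 0.13, -0.07 and 0.01 with equal medians, deposited scaling and quantile normalization. With only probe sets above the median, which leaves out Ptges, 0 pathway genes were apart downward, against 5.27% of all genes. There 1 pathway gene, Fpr2, was called.

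Signs turned for Ptgs2 within batch A (-0.046), Ptges within batch B (0.11) and with arrays left out (-0.79 to 0.31), Alox5 within batch A (0.012) and with arrays left out (-0.77 to 0.020), Alox5ap with the deposited scaling (-0.063), quantile normalization (-0.16) and arrays left out (-0.10 to 0.43), and Lta4h with the deposited scaling (-0.14), quantile normalization (-0.15), the mean over its probe sets (-0.27), the replicate block (-0.10) and arrays left out (-0.25 to 0.44). Where no value above shows it, the cause was not tested.

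The replicate numbers are shared by 2 pairs of arrays, which the labels do not tie together; deviations from group means correlated at 0.02 for number 1 and -0.24 for number 2 over probe sets. With the replicate block 0 probe sets were called, against 21 without. Tumoricidal replicate 3 has no control array of its number, so in this fit it adds nothing to the difference. The values, 1.81 for Alox15, 0.72 for Tbxas1 and -1.62 for Ltc4s, are those of the fit without that array, which also called 0 probe sets. The replicate block is therefore not a separate check.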
